A study of Mus musculus with 43 samples.

Results

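Ribosome biogenesis and nucleolar genes were followed as a group of 49 genes, chosen as the listed symbols with a row in both expression tables. All 49 were found among the 13845 genes of the processing experiment and the 13817 genes of the input series. They were sorted by role into 3 subunits of RNA polymerase I, 5 nucleolar proteins with several functions and 13 factors of the small-subunit processome. A further 6 were factors of late pre-40S particles and 18 of pre-60S particles. The other 4 (Fbl, Nop56, Nop58 and Nolc1) belong to or associate with the box C/D small nucleolar ribonucleoprotein (snoRNP) and are called box C/D proteins below.

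Ribosomes are assembled in the nucleolus, where RNA polymerase I transcribes the precursor of the ribosomal RNAs. Box C/D snoRNPs methylate that precursor, the small-subunit processome folds and cleaves it, and separate sets of factors mature the small and the large subunit on their way to the cytoplasm. Many of these genes are known targets of MYC, and fast-growing tumor cells, pancreatic ones included, depend on a high output of ribosomes.

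All libraries came from PD798, a cell line from a pancreatic ductal tumor of a KPCY mouse, a model in which Cre under a pancreatic promoter deletes a conditional p53 allele and switches on yellow fluorescent protein. It is 1 line in culture, so the libraries are not separate mice, and p-values measure only the spread between these libraries, which may be technical. In the processing experiment, bulk RNA was sequenced in triplicate (n = 3) for 4 conditions. Pre-FACS cells were banked before sorting, Mock cells stood in staining buffer at room temperature for as long as the sort took, FACS-only cells went through the BD Influx sorter after magnetic particles and lysis buffer for red blood cells, and Pre-enriched cells also passed the in-line magnetic and acoustic enrichment. The labels state mixing with normal mouse blood for every library, whereas the description of the 4 conditions in the study does not mention blood. The input series has 11 single cells, 12 pools of 10 cells and 6 pools of 100 cells, all pre-enriched and sorted from normal mouse blood, and 2 libraries of bulk RNA, for which the labels name the same flow treatment. Values are TPM, transcript abundances scaled to a fixed total, which allow for gene length and keep no record of depth.

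PD798 expressed its epithelial markers, since 7 of 7 (Krt7, Krt8, Krt18, Krt19, Epcam, Cdh1 and Cldn7) were measured and summed to between 23901 and 27359 TPM in the 12 processing libraries. Of 20 blood cell markers 4 had a row in the processing table, and they summed to between 2.70 and 4.64 TPM in Pre-FACS, Mock and FACS-only libraries and to between 3.99 and 7.92 TPM in Pre-enriched libraries. In the input series 7 libraries resembled one another more than their labels imply. Single cells 6 and 9, 10-cell pools 5 and 12 and 100-cell pools 1 to 3 had pairwise Pearson correlations across 12325 genes of between 0.967 and 0.995, whereas the other 9 single cells correlated with one another at between 0.537 and 0.730. Single cells 6 and 9 held 11438 and 11223 genes at 1 TPM or more, against between 3919 and 8598 in the other 9. The counts of members called and the shares of members measured that rest on these libraries are given with and without them.

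Members lay on 15 chromosomes, and none was on the X chromosome. By the GENCODE annotation of the mm10 assembly, 6 of the 49 (12.2%) carry annotated small nucleolar RNA genes within the gene on the same strand, compared with 210 of 12670 protein-coding genes of the processing table (1.66%). These are Nop56 with 5, Nop58 with 4, Gnl3, Ncl and Wdr43 with 3 each, and Tsr1 with 2, and the hosted RNAs include Snord57 in Nop56 and Snord19 and Snord69 in Gnl3. No member shared exon sequence with another gene on the same strand, but 20 did on the opposite strand, among them Gnl3 with Pbrm1 and Nop56 with Idh3b. The library kit does not mark strand, so reads from such overlaps cannot be told apart. Mrto4 alone had pseudogenes named after it, 2 of them, which makes its values uncertain. Pseudogenes under other symbols were not counted, so the other members may have some too.

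Promoter sequences of 250 bases before to 50 bases after the start were matched in RefSeq (GRCm38.p6) for 42 of the 49 members. The E-box CACGTG, the palindromic motif that MYC with MAX can bind, was found in 11 of the 42 (26.2%), compared with 10.0% of 10463 promoters of genes in the processing table. It lay before the start in 3 (Imp4, Nop2 and Utp18) and after it in 8 (Grwd1, Ltv1, Mybbp1a, Pes1, Pno1, Tsr1, Utp20 and Wdr43). CCGGAAG, the core that ETS factors bind, was found on either strand in 15 of 42 (35.7%) against 17.4%, and TATAAA in 1 of 42 (2.38%) against 7.35%. A match is a description of the letters and does not show binding. The promoters of 3 members on which results below turn are printed 5′ to 3′ on the strand of the gene, with the E-box in capitals where there is one. Gnl3 (chr14:31019082-31019381, minus strand) is the member that passed the test between processing conditions and holds no E-box. Nop2 (chr6:125131633-125131932, plus strand) has the E-box 60 bases before the start, and Mybbp1a (chr11:72441077-72441376, plus strand) has it 41 bases after.
Gnl3: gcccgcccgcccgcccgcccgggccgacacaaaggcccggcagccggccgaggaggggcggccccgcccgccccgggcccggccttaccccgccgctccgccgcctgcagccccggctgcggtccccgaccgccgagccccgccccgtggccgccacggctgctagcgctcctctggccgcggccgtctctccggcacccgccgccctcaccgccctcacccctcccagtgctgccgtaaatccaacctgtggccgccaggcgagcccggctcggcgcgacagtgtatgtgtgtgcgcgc
Nop2: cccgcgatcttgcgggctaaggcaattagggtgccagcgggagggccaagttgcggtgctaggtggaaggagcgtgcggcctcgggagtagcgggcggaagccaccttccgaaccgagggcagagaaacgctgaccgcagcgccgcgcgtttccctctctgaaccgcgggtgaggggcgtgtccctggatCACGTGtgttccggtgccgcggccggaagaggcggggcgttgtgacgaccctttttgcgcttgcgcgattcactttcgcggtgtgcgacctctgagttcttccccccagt
Mybbp1a: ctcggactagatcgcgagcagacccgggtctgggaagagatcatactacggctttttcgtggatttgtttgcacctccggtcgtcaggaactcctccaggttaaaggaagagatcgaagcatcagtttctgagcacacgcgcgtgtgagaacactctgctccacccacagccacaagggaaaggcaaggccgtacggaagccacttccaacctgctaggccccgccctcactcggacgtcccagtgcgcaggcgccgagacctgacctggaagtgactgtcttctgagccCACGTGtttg

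In bulk RNA of the processing experiment every member was well above the limit of 1 TPM, with means over the 12 libraries of between 25.0 and 851 TPM, compared with a median of 29.4 TPM over the 12159 genes tested. The median member stood at between 84.4 and 97.8 TPM in each of the 12 libraries. Npm1, the abundant histone and ribosome chaperone of the granular nucleolus, was the highest at 851 TPM, followed by Nop56, a core box C/D protein, at 429 TPM. Utp20, the very large scaffold of the processome, was the lowest at 25.0 TPM. Within the other roles the extremes were Polr1c (96.2 TPM), a subunit shared by RNA polymerases I and III, and the second-largest polymerase I subunit Polr1b (52.3 TPM), the methyltransferase Fbl as the lowest box C/D protein (127 TPM), and the helicase Ddx21 as the lowest multifunctional protein (43.7 TPM). The rRNA pseudouridine methyltransferase Emg1 led the processome factors (211 TPM), the KH-domain protein Pno1 (102 TPM) and Bysl (27.9 TPM) bounded the late pre-40S factors, and the rRNA cytosine methyltransferase Nop2 (231 TPM) and Noc3l (32.2 TPM) bounded the pre-60S factors. Together the members took up between 5891 and 6378 TPM of each library. The spread between replicates was small, with a median SD within conditions of 0.08 on the log2(TPM + 1) scale over the members and 0.14 over all genes tested.

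The first comparison asks whether sorting or pre-enrichment altered these genes. Among the 4 conditions 1 of 49 members passed limma's F test, Gnl3 (adjusted p = 0.0314), and 0.107% of the 12159 genes tested were called. Gnl3, or nucleostemin, is a nucleolar GTPase of proliferating and stem cells that takes part in large-subunit maturation. It was measured at 102, 121 and 106 TPM in the Pre-FACS libraries and at 121, 109.7 and 111 TPM in the Mock libraries. It reached 141, 145 and 141 TPM in FACS-only and 139.8, 142 and 141 TPM in Pre-enriched libraries. All 6 libraries of sorted cells were thus above all 6 of unsorted cells, and the lowest sorted value exceeded the highest unsorted one. This split into sorted and unsorted cells was not among the planned comparisons, and the share of all genes with such a gap was not taken.

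Between FACS-only and Pre-FACS, Gnl3 rose from 109.7 ± 10.2 to 142 ± 2.07 TPM (SD, n = 3 each), a ratio of means of 1.30 and a log2 difference of 0.38 (SE 0.07, limma adjusted p = 0.0368). It was the only member of 49 called in that pair, in which 0.123% of all genes were called, 0.0987% higher and 0.0247% lower, and 8 members had an unadjusted p under 0.05 (6.96% of all genes). With Pre-enriched in place of FACS-only the log2 difference from Pre-FACS was 0.36 (SE 0.07), with a limma adjusted p of 0.0746, and 0 of 49 members were called (0.0493% of all genes, 0.0164% higher and 0.0329% lower), with 10 at an unadjusted p under 0.05 (9.18% of all genes). Against Mock the log2 differences of Gnl3 were 0.32 for FACS-only (adjusted p = 0.664) and 0.30 for Pre-enriched (adjusted p = 0.254), both from limma with an SE of 0.07. Mock and Pre-FACS differed by 0.06, and Pre-enriched and FACS-only by -0.02. These pairs share libraries, and none is independent of the others.

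The call for Gnl3 is near the threshold. Over 20 alternatives of the FACS-only and Pre-FACS pair the limma adjusted p ran from 0.00742 to 0.246 and was under 0.05 in 9, whereas the log2 difference stayed between 0.33 and 0.45. Leaving out any 1 of the 3 FACS-only libraries, any 1 of the 3 Pre-enriched libraries, Mock 1, Pre-FACS 1 or Pre-FACS 3 brought the count of members called in that pair from 1 to 0. The opposite-strand overlap of Gnl3 with Pbrm1 touches its value too, and the part of that overlap was not tested.

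**Figure D1:**
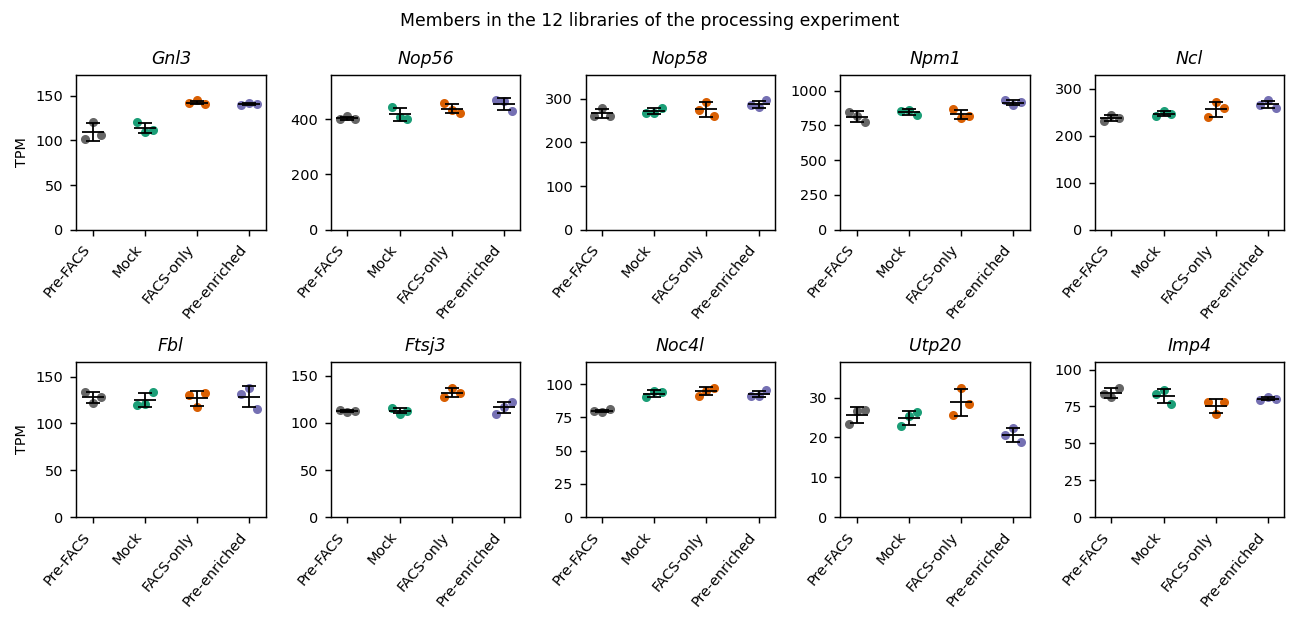
TPM (vertical axes, from 0) of 10 members in the 12 libraries of the processing experiment, with points for libraries and bars for the mean ± SD of 3 libraries per condition. Gnl3 lies at 139.8 TPM or more in all FACS-only and Pre-enriched libraries and at 121 TPM or less in all Pre-FACS and Mock libraries, while Fbl overlaps across the 4 conditions.

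The other hallmark nucleolar proteins did not pass the test. Nop56 averaged 404 ± 5.76 TPM before the sort and 417 ± 23.5 TPM after mock treatment (SD, n = 3 each). Its means were 438 ± 17.6 TPM for FACS-only and 455 ± 20.6 TPM for Pre-enriched cells, with an adjusted p of 0.586 in limma's F test. Npm1 lay between 895 and 929.5 TPM in the Pre-enriched libraries and between 771 and 866 TPM in the other 9, without overlap (adjusted p = 0.509). For a gap of this kind no share of all genes was taken. Ncl, the rRNA-binding protein nucleolin, had means of 238 ± 6.32 TPM in Pre-FACS and 267 ± 8.10 TPM in Pre-enriched cells, with the other conditions between (adjusted p = 0.642). Nop58, the partner of Nop56 in the box C/D particle, ran from 259 to 296 TPM over all 12 libraries. Fbl, which catalyses the methylation, had means of between 125 and 129 TPM in the 4 conditions, a range smaller than its SD in any one of them. Mybbp1a, a nucleolar MYB-binding protein, also varied little, between 289 and 329 TPM.

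Among the remaining members 8 besides Gnl3 had an unadjusted p under 0.05 in the F test, so that 9 of 49 did, compared with 7.56% of all genes, and none of the 8 passed after adjustment. Noc4l, a processome factor that forms a complex with Nop14, was measured at 79.8, 79.2 and 81.0 TPM in Pre-FACS and at up to 97.3 TPM in the other 9 libraries, all of them above 81.0 TPM (limma F test adjusted p = 0.366). Ftsj3, an rRNA 2′-O-methyltransferase, was at 127, 138 and 132 TPM in FACS-only and at between 109.9 and 122 TPM elsewhere (adjusted p = 0.366). Utp20 was at 20.5, 22.4 and 18.9 TPM in Pre-enriched and at between 23.0 and 32.5 TPM elsewhere (adjusted p = 0.404). Ddx18, a DEAD-box helicase of the large subunit, was at 74.1, 79.2 and 82.2 TPM in Pre-FACS and at 100.2, 86.8 and 94.5 TPM in Pre-enriched libraries (adjusted p = 0.456). In Noc4l, Ftsj3 and Utp20 a single condition lay outside the range of the other libraries, and it was a different condition each time, whereas in Ddx18 the Mock and FACS-only values bridged the gap. The share of all genes with a single condition outside the range of the rest was not taken.

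The largest differences of each pair were modest. In FACS-only against Pre-FACS the extremes over the members were Gnl3 and Imp4, a U3 snoRNP protein, at 0.38 and -0.16, as differences of log2(TPM + 1). For Pre-enriched against Pre-FACS they were Gnl3 and Utp20 at 0.36 and -0.30. In Mock against Pre-FACS they were Rrp12, a pre-40S export factor, at 0.25 and the pre-40S factor Tsr1 at -0.19, with 0 members called by limma (0.00822% of all genes) and 4 at an unadjusted p under 0.05 (4.53%). In Pre-enriched against FACS-only they were Rrp9, a U3-specific protein, at 0.15 and Utp20 at -0.47, in Pre-enriched against Mock Gnl3 at 0.30 and Utp20 at -0.27, and in FACS-only against Mock Gnl3 at 0.32 and the histone-binding chaperone Grwd1 at -0.15. In these last 3 pairs 0 members and 0 genes of all (0%) were called by limma, with 5, 7 and 4 members at an unadjusted p under 0.05 (6.75%, 7.77% and 5.63% of all genes).

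**Figure D2:**
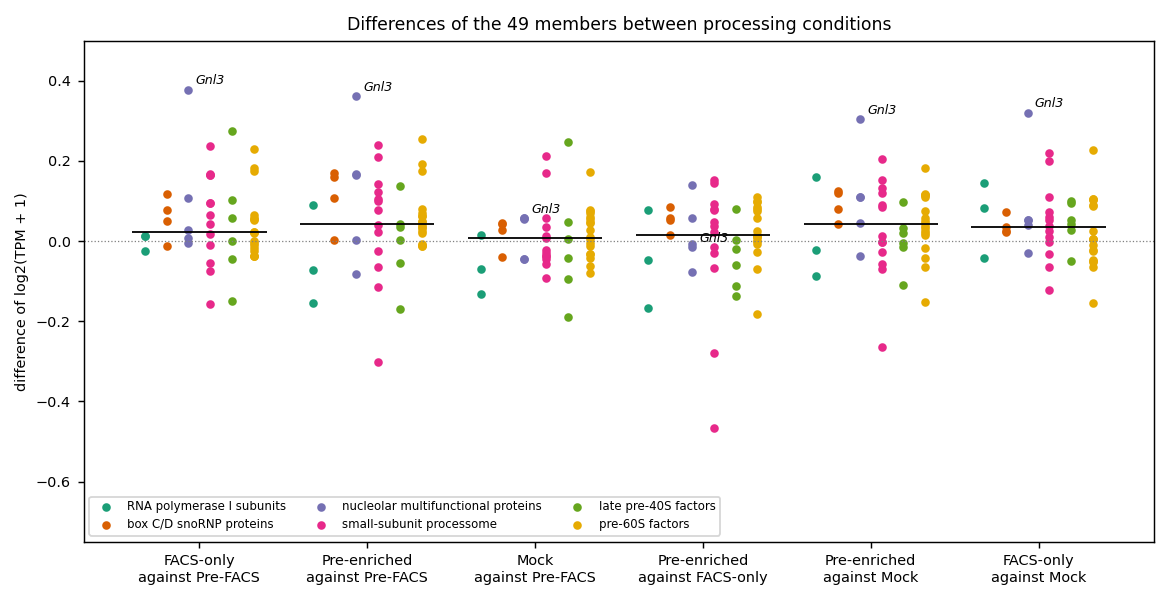
Difference of log2(TPM + 1) (vertical axis) for each of the 49 members in the 6 pairs of conditions (horizontal axis), colored by role, with a black bar at the median. The medians lie between 0.01 and 0.04, Gnl3 is the highest point in 4 of the 6 pairs, and Utp20 gives the lowest point in the 3 pairs that set Pre-enriched against another condition.

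As a group the members shifted little. Their median log2 difference was 0.02 in FACS-only against Pre-FACS (0.001 over all genes), 0.04 in Pre-enriched against Pre-FACS (-0.01 over all genes) and 0.01 in Mock against Pre-FACS. In Pre-enriched against Pre-FACS 36 of 49 were higher on average, and in 13 of them (26.5%) all 3 Pre-enriched libraries were above all 3 Pre-FACS libraries, compared with 6% of all genes. Those 13 were Ddx18, Gnl2, Gnl3, Mrto4, Ncl, Noc4l, Nop14, Nop56, Nop58, Npm1, Rrp1b, Utp18 and Wdr43. In the other direction 1 member, Utp20, did not overlap (8.24% of all genes). In FACS-only against Pre-FACS 7 members were higher without overlap (5.81% of all genes), namely Ddx18, Ftsj3, Gnl3, Heatr1, Mrto4, Noc4l and Nop56, and 1 was lower, Imp4 (5.8%). In Mock against Pre-FACS 3 were higher (4.93%) and 3 lower (4.41%). In Pre-enriched against FACS-only 3 were higher (4.91%) and 3 lower (7.41%), in Pre-enriched against Mock 8 higher (6.6%) and 2 lower (8.81%), and in FACS-only against Mock 5 higher (5.11%) and 1 lower (5.4%). These pairs share libraries, and members of 1 pathway vary together, so that the 49 genes are not 49 separate observations. Summed over the members, the Pre-FACS libraries held between 5891 and 6074 TPM and the Pre-enriched libraries between 6161 and 6378 TPM.

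By role, the 4 box C/D proteins had a median log2 difference of 0.13 in Pre-enriched against Pre-FACS and the 5 multifunctional proteins one of 0.17, compared with 0.08 for the processome, 0.02 for the late pre-40S factors, 0.04 for the pre-60S factors and -0.07 for the 3 polymerase I subunits. These medians by role were not tested, and no single member was called in that pair. A second list of 100 other genes of the pathway (further polymerase I machinery, snoRNP proteins, subunit factors and the RNA exosome) had 0 called in the F test, with 6 at an unadjusted p under 0.05. Its median in Pre-enriched against Pre-FACS was 0.05, with 71 of 100 higher. The 78 cytosolic ribosomal proteins, the products that these factors assemble, had medians of 0.04 in the same pair and -0.08 in Mock against Pre-FACS, with 0 called in either. The summed ribosomal protein TPM ranged from 21584 to 29456 in the Pre-FACS libraries alone, a spread wider than the differences between conditions.

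In the input series the question is how well members are measured in bulk RNA, in pools and in 1 cell. By the study, libraries of sorted cells and pools were made from cell lysate, and those of bulk RNA from isolated RNA. Amount and kind of input therefore cannot be told apart in any comparison with bulk RNA. The order of the members in the 2 bulk libraries of this series resembled that of the processing experiment (Pearson r = 0.931 on log2 values over 49 members, a description). Against the same reference r was 0.696 for the mean of the 10-cell pools, 0.720 for the 100-cell pools and 0.691 for the mean of the 9 single cells other than 6 and 9. In bulk RNA 49 of 49 members stood at 1 TPM or more, in the 10-cell pools between 45 and 49, and in the 100-cell pools between 47 and 49. Summed over the members the bulk libraries held 5066 and 5111 TPM, the 10-cell pools between 3455 and 5112 TPM, and the 100-cell pools between 3859 and 4827 TPM.

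**Figure D3:**
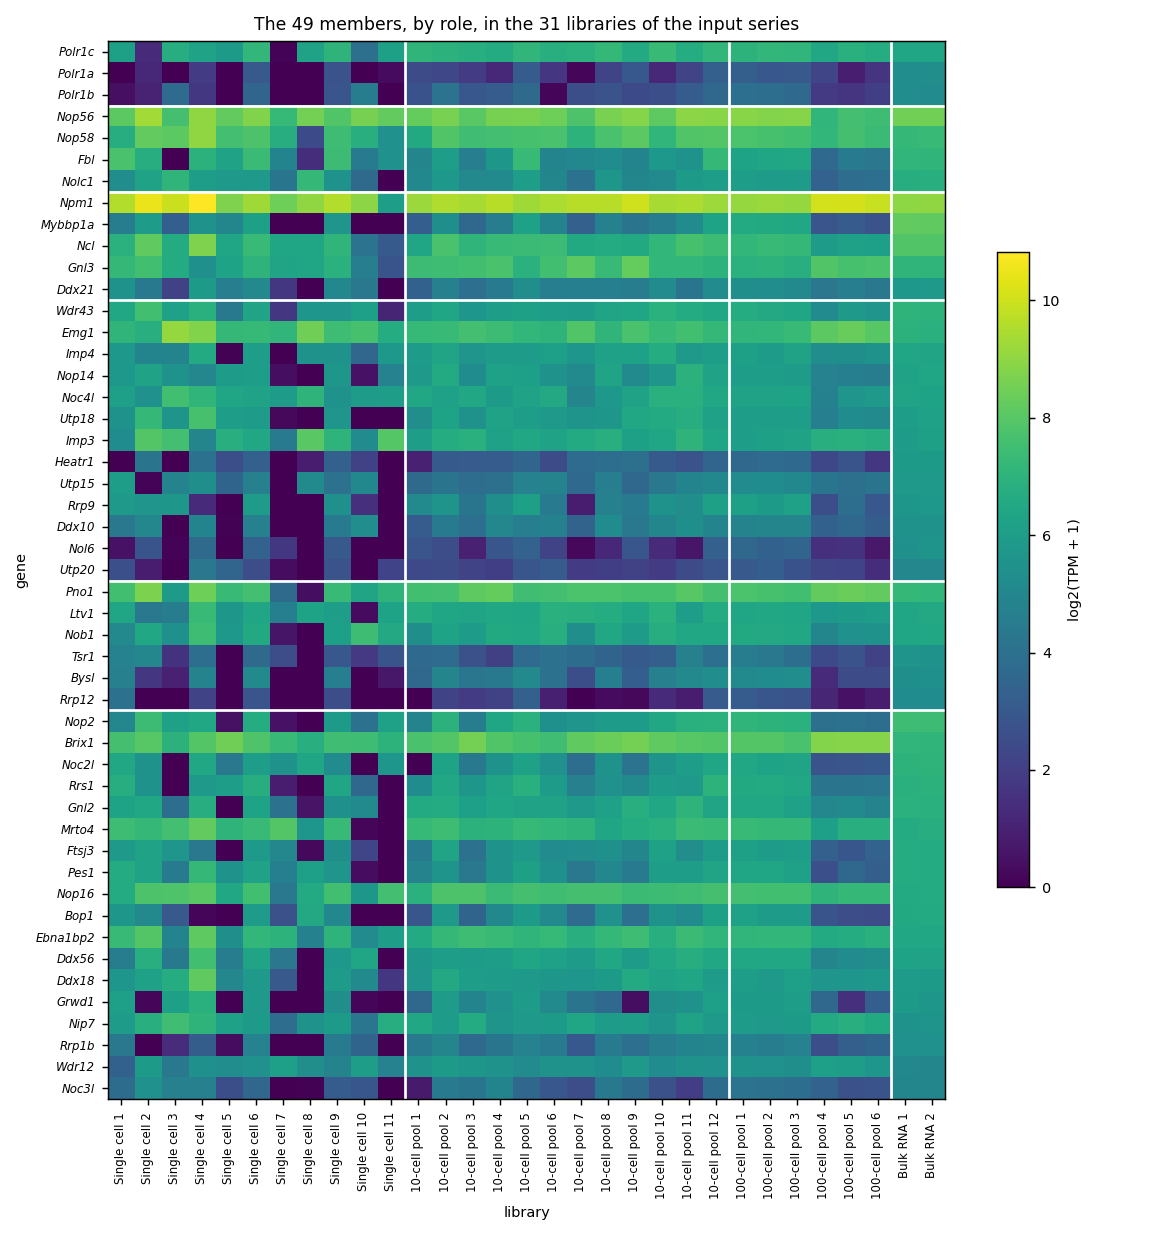
Level of each member as log2(TPM + 1) (color) in the 31 libraries of the input series (columns, by input), with genes in rows grouped by role and ordered by bulk level. Single cells 6 and 9 and 100-cell pools 1 to 3 show no dark gaps, single cells 8 and 11 list 20 and 21 members at 0, and 100-cell pools 4 to 6 are darker than pools 1 to 3 in most rows.

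Measured against bulk RNA, 15 of 49 members were called in the 10-cell pools by limma, 5 higher and 10 lower, where 39.2% of the 12591 genes tested were called, 7.29% higher and 31.9% lower. In the 100-cell pools 20 members were called, 5 higher and 15 lower, where 32% of all genes were called, 7.13% higher and 24.9% lower. Both counts are read against that background, since a large part of all genes was called. The median log2 difference was -0.79 for the members and -0.84 for all genes in the 10-cell pools, and -1.14 and -0.77 in the 100-cell pools. In terms of overlap, 22 members were lower in all 18 pools than in both bulk libraries (38.9% of all genes), and 9 were higher in all 18 (7.97%). The 9 were Brix1, Ebna1bp2, Emg1, Nip7, Nop16, Npm1, Pno1, Polr1c and Wdr12. Fewer cells of a kind and less RNA per cell cannot be told apart in pooled samples. The 6 of 20 blood cell markers with a row in the input table summed to between 47.3 and 64.2 TPM in bulk RNA, between 0.868 and 111 TPM in the 10-cell pools, between 42.2 and 156 TPM in the 100-cell pools and between 0 and 322 TPM in single cells. The 7 epithelial markers summed to between 28217 and 28741 TPM in bulk RNA, 17721 and 32339 TPM in the 10-cell pools, 7757 and 31905 TPM in the 100-cell pools and 3463 and 30179 TPM in single cells. The part of either list in these differences was not tested.

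The members that were lower in pools include those with the longest coding sequences of the 49. Utp20 was at 31.4 and 30.8 TPM in bulk RNA, at between 2.68 and 7.61 TPM (median 3.98) in the 10-cell pools and at between 1.67 and 8.37 TPM in the 100-cell pools. Its log2 differences were -2.64 (SE 0.45, limma adjusted p = 0.000258) and -2.54 (SE 0.48, adjusted p = 0.00108), the lowest adjusted p of any member in both comparisons. Heatr1, a large processome protein required for transcription by polymerase I, was at 58.3 and 57.9 TPM in bulk RNA and at between 0.997 and 14.7 TPM (median 7.77) in the 10-cell pools, a log2 difference of -2.77 (SE 0.60, adjusted p = 0.00158). Polr1a, the catalytic subunit of polymerase I, was at 38.9 and 39.7 TPM in bulk RNA and at between 0.105 and 8.89 TPM (median 3.63) in the 10-cell pools, differing by -3.26 (SE 0.67, adjusted p = 0.00107). Rrp12 was at 36.8 and 37.6 TPM in bulk RNA and at between 0 and 9.04 TPM (median 1.19) in the 10-cell pools, differing by -3.89 on the log2 scale (SE 0.81, adjusted p = 0.00118). For these 4 genes no pool overlapped the bulk libraries. Mybbp1a had the widest gap in TPM, from 300.2 and 289 TPM in bulk RNA to between 8.36 and 75.2 TPM in the 10-cell pools.

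The members called higher in pools encode small proteins. Nop16, a pre-60S factor, was at 97.9 and 101 TPM in bulk RNA and at between 119.8 and 223 TPM (median 187) in the 10-cell pools, a log2 difference of 0.86 (SE 0.20, limma adjusted p = 0.00261). Brix1, another pre-60S factor, was at 138 and 135 TPM in bulk RNA and at between 181 and 375 TPM (median 250.5) in the 10-cell pools. Its log2 differences were 0.94 (SE 0.30, adjusted p = 0.0170) in the 10-cell pools and 1.24 (SE 0.32, adjusted p = 0.00730) in the 100-cell pools. Ebna1bp2, at 89.6 and 89.3 TPM in bulk RNA, ranged from 98.1 to 176 TPM in the 10-cell pools (log2 difference 0.65, adjusted p = 0.0220). Pno1 was called higher in both comparisons as well, at 0.58 and 0.78 on the log2 scale (adjusted p = 0.0390 and 0.0173). Npm1, at 502 and 524 TPM in bulk RNA and at between 582 and 1046 TPM in the 10-cell pools, was not called although the groups did not overlap. The other members called in the 10-cell pools were Polr1c, higher, and Ddx21, Mybbp1a, Nol6, Polr1b, Tsr1 and Utp15, lower. In the 100-cell pools the calls beside Brix1, Nop16, Pno1, Utp20, Heatr1, Polr1a and Rrp12 were Emg1 and Wdr12, higher, and Ftsj3, Gnl2, Mybbp1a, Ncl, Nol6, Nolc1, Polr1b, Rrp1b, Tsr1, Utp15 and Wdr43, lower.

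Coding length moved with these differences. Over the 49 members, whose coding lengths run from 534 to 8367 bases, the log2 difference between 10-cell pools and bulk RNA had a Pearson r of -0.809 with log2 coding length, and that of the 100-cell pools one of -0.809 too. Without 10-cell pools 5 and 12 r was -0.791. Over all 11626 genes with a coding length r was -0.610 for all the 10-cell pools and -0.624 for the 100-cell pools, so the relation is not particular to these members. Genes are not independent replicates, and these values are descriptions. All 13 members of more than 2400 coding bases were lower in the 10-cell pools, with a median of -2.42, and 10 of the 13 members under 1200 bases were higher, with a median of 0.46. With a trend in coding length and GC content removed from each library, the direction of the calls turned, to 15 higher and 1 lower in the 10-cell pools (12.3% and 6.61% of all genes) and to 7 higher and 0 lower in the 100-cell pools (5.94% and 3.60%), while the median of all genes moved from -0.84 to 0.06 and from -0.77 to 0.02. Quantile normalization moved the calls to 11 higher and 8 lower in the 10-cell pools (16.9% and 13.98% of all genes) and to 10 higher and 11 lower in the 100-cell pools (15.7% and 12.98%). Relative to the median of all genes, the median member in the 10-cell pools differed by 0.05 as deposited, by -0.31 after quantile normalization and by 0.39 after removal of the trend, so their direction as a group depends on the scaling.

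Utp20, Rrp12, Heatr1 and Polr1a had a negative difference from bulk RNA in 32 of 32 alternatives for each type of pool, but its size and its call depended on the length and GC trend. With the trend removed the log2 differences in the 10-cell pools were -0.85 for Utp20, -0.87 for Heatr1, -1.12 for Polr1a and -1.58 for Rrp12, and among these 4 Rrp12 alone was called (limma adjusted p = 0.0398). In the 100-cell pools they were -1.05, -1.27, -1.07 and -1.24 in the same order, and none was called. Nop16 and Brix1 had a positive difference in 32 of 32, and with the trend removed both were called in the 10-cell pools (0.86 and 1.07) but Brix1 alone of them in the 100-cell pools (1.23, against 0.57 for Nop16). Of the members called as deposited, Ddx21 in the 10-cell pools (-1.22) turned positive in 1 of 32, reaching 0.46. Among those called in the 100-cell pools Gnl2, Rrp1b and Wdr43 also turned positive in 1 of 32, reaching 0.06, 0.003 and 0.16. The counts also rest on the bulk RNA, for which there are only 2 libraries. Without either of them the number of members called fell in both types of pool, the lone bulk library being assumed to vary like the other groups. Without 100-cell pool 5 or 6 the 100-cell count was 12 or 13, and the shares of all genes called in these fits were not taken.

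**Figure D4:**
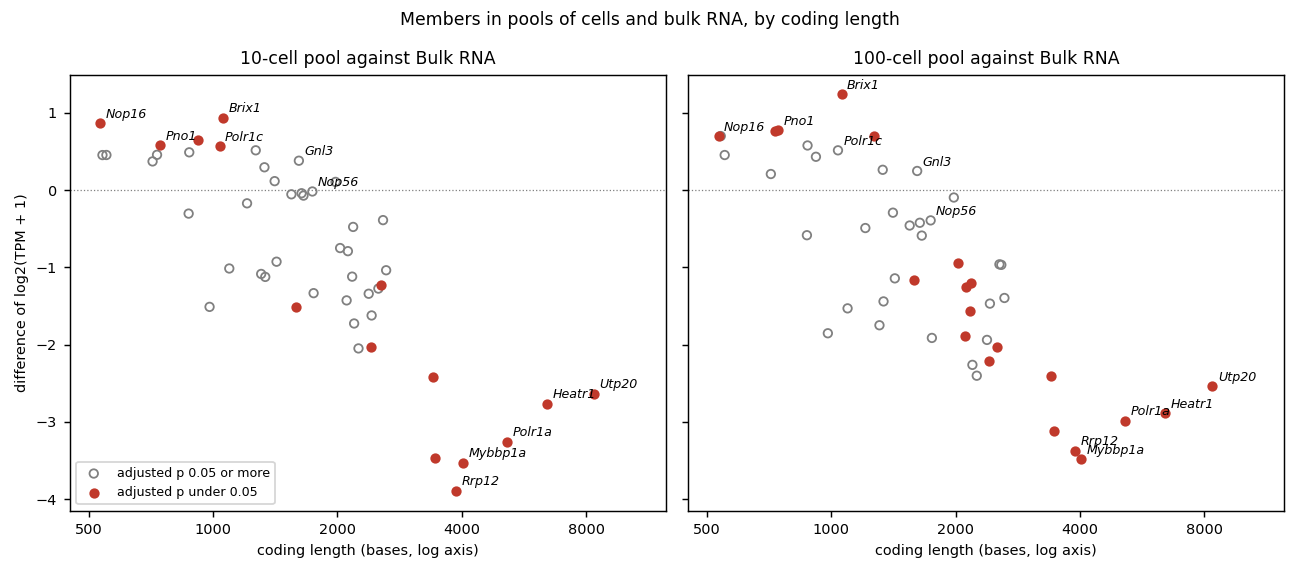
Difference of log2(TPM + 1) between pools and bulk RNA (vertical axis) against coding length (horizontal log axis) for the 49 members, with 10-cell pools on the left and 100-cell pools on the right and red points for a limma adjusted p under 0.05. The difference tends to fall with length. In the 10-cell pools Brix1 is the highest point at 0.94 and Rrp12 the lowest at -3.89, and the longer Polr1a, Heatr1 and Utp20 lie above Rrp12.

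Of the second list of 100 pathway genes, 11 were called higher and 19 lower in the 10-cell pools (7.29% and 31.9% of all genes). In the 100-cell pools 10 were called higher and 24 lower (7.13% and 24.9% of all genes). The medians of this list were -0.27 and -0.38, compared with -0.79 and -1.14 for the 49 members. The difference between the lists was not tested. The exosome subunit Exosc7 (log2 difference 1.11, SE 0.16, limma adjusted p = 7.97e-05) and the box H/ACA protein Nhp2 (1.21, SE 0.20, adjusted p = 0.000226) rose most clearly in the 10-cell pools, and the GTPase Gnl3l (-2.61, SE 0.52, adjusted p = 0.000799) and Urb2 (-2.09, SE 0.48, adjusted p = 0.00218) fell most clearly. The same 4 had the lowest adjusted p in their direction in the 100-cell pools, at 1.14, 1.30, -2.65 and -2.35. Of the 78 cytosolic ribosomal proteins, which are short, 50 were called higher and 1 lower in the 10-cell pools (7.29% and 31.9% of all genes), with a median of 0.69. In the 100-cell pools 44 were called higher and 1 lower (7.13% and 24.9% of all genes), with a median of 0.72.

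Between 100-cell and 10-cell pools 0 of 49 members were called by limma (0.00794% of all genes), and 3 had an unadjusted p under 0.05 (7.31%). The lowest adjusted p were those of Gnl2, a nucleolar GTPase of the large subunit (log2 difference -0.72, SE 0.24, adjusted p = 0.486), Ltv1, a pre-40S factor (-0.41, adjusted p = 0.556), and the processome factor Utp18 (-0.52, adjusted p = 0.668). In the other direction they were Emg1 (0.30, adjusted p = 0.734), Brix1 (0.30, adjusted p = 0.750) and Nip7, a pre-60S factor (0.25, adjusted p = 0.783). The 100-cell pools are not alike among themselves, however, and this widens their spread.

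The 6 pools of 100 cells fell into pools 1 to 3 and pools 4 to 6. Correlations across genes were between 0.875 and 0.900 from one set to the other, and between 0.974 and 0.980 among pools 4 to 6. Nop2 was at 133, 128 and 119.5 TPM in pools 1 to 3 and at 14.8, 15.5 and 13.9 TPM in pools 4 to 6. Mybbp1a was at 97.7, 92.6 and 87.4 TPM in the first 3 and at 6.22, 7.68 and 5.72 TPM in the last 3. Nop56 went from 467, 451 and 456 TPM to 136, 190.2 and 176 TPM, whereas Gnl3 went the other way, from 119, 126 and 108 TPM to 234, 202 and 209 TPM. Npm1 was at 547, 582 and 548 TPM in pools 1 to 3 and at 1085, 1109 and 965 TPM in pools 4 to 6. In 40 of the 49 members all of pools 4 to 6 were below all of pools 1 to 3 (58% of all 12591 genes), and in 8 (Brix1, Emg1, Gnl3, Imp3, Nip7, Npm1, Pno1 and Wdr12) all were above (15.6%). No label separates the sets, so these values are a description with no test.

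**Figure D5:**
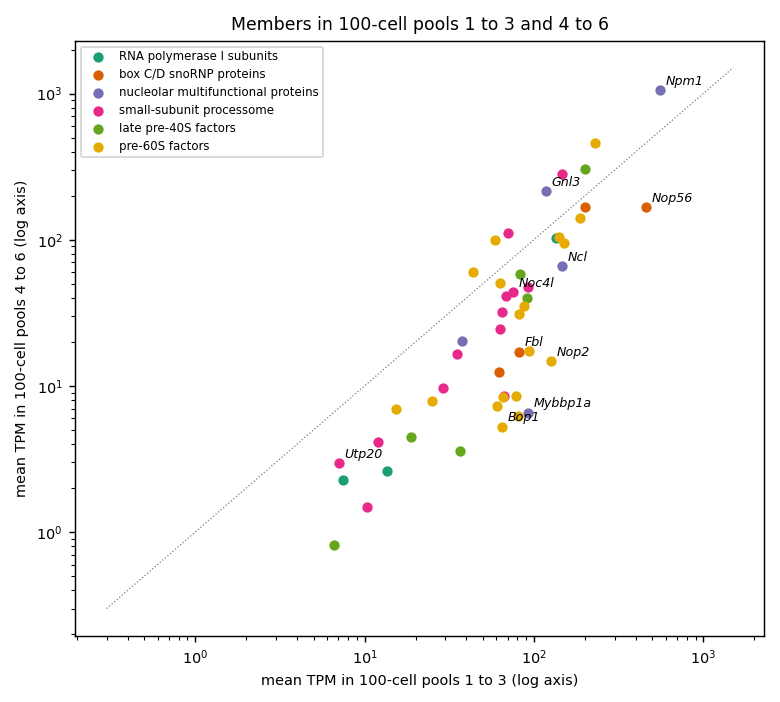
Mean TPM of each member in 100-cell pools 4 to 6 (vertical log axis) against that in pools 1 to 3 (horizontal log axis), colored by role, with the line of equality dotted. 41 of the 49 points lie below the line, and Mybbp1a and Nop2 lie far below it, while Npm1 and Gnl3 lie above.

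GC content and length moved with this split as well. Over the 49 members the log2 difference of pools 4 to 6 from pools 1 to 3 had a Pearson r of -0.488 with coding GC content and of -0.491 with log2 coding length (-0.461 and -0.357 over all 11626 genes). The 14 members with a coding GC content of 55% or more had a median of -2.31, and the 15 under 48% one of -1.05. Without pools 4 to 6 the members called in the 100-cell pools against bulk RNA fell from 20 to 3, 1 higher and 2 lower (2.79% and 4.63% of all genes), and without pools 1 to 3 they rose to 39, 7 higher and 32 lower (10.3% and 44.9% of all genes). Against the 10-cell pools 25 members were called without pools 1 to 3, 5 higher and 20 lower (4.83% and 12.4% of all genes), and 0 without pools 4 to 6 (0.0320% higher and 0% lower). Leaving out 10-cell pools 5 and 12 changed the count for the 10-cell pools against bulk RNA from 15 to 16, 4 higher and 12 lower (7.46% and 35.7% of all genes). With these 2 and 100-cell pools 1 to 3 left out together, 28 members were called in the 10-cell pools against bulk RNA (8.82% of all genes higher and 40.8% lower), 39 in the 100-cell pools against bulk RNA (10.2% and 45.3%) and 21 in the 100-cell against the 10-cell pools (4.26% and 10.2%).

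Single cells held a median of 79.6% of the members at 1 TPM or more, with a range from 24 to 49 of the 49. Without single cells 6 and 9, which held all 49, the median was 71.4% over 9 cells. Over all 13817 genes the median was 42.1%, or 40.8% without these 2 cells. Even in bulk RNA a median of 86.1% of all genes reached 1 TPM, compared with 100% of the members. The part of expression level in this contrast was not tested. The number of members listed at 0 ran from 0 in cells 4, 6 and 9 to 20 in cell 8 and 21 in cell 11, the cells with the fewest genes of the table at 1 TPM or more (3919 and 4106). An exact 0 in these values can be a failed measurement, and depth is unknown, so a gene listed at 0 cannot be read as silent. The genes of the table held only 54.2% of the fixed total in cell 7 and 99.99% in cell 6, which bears on every TPM of a cell. Summed over the members, the cells held between 1854 TPM (cell 7) and 7904 TPM (cell 4).

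By role, box C/D proteins were at 1 TPM or more in 94.4% of the values of the 9 cells and multifunctional proteins in 86.7%, compared with 75.3% for pre-60S factors, 68.4% for the processome, 64.8% for late pre-40S factors and 51.9% for polymerase I subunits. This order follows the median bulk level only in part, since the bulk medians were 142, 236, 97.5, 63.0, 63.6 and 39.3 TPM in the same order. There were 14 members at 1 TPM or more in all 11 cells. Brix1 varied least, between 108 and 355 TPM with a median of 179 TPM (SD of log2(TPM + 1) 0.51), followed by Nop56 between 151 and 643 TPM with a median of 299 TPM (SD 0.61). Noc4l (SD 0.65) lay between 43.9 and 186 TPM and Emg1 (SD 0.81) between 104 and 551 TPM. None of these 4 was at 0 in any cell. Without cells 6 and 9 the 3 smallest SD were again those of Brix1, Nop56 and Noc4l, followed by Polr1a, which was listed at 0 in 6 of those 9 cells.

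The largest SD over the 11 cells were those of Utp18 (3.18), Grwd1 (3.16), Mrto4 (2.98) and Rrs1 (2.96), a regulator of 5S RNP recruitment, and the same 4 genes led without cells 6 and 9. Utp18 was at 202 TPM in cell 4 and 145 TPM in cell 2, at between 44.8 and 63.0 TPM in cells 1, 3, 5, 6 and 9, at 0.160 TPM in cell 7, and listed at 0 in cells 8, 10 and 11. Mrto4, a paralog of ribosomal protein P0 that holds its place on the pre-60S particle, was at between 129 and 293 TPM in 8 cells, lower in cell 8, at 0.144 TPM in cell 10 and at 0 in cell 11. In neither gene did a cell lie between 0.160 and 44.8 TPM. Rrp12 was listed at 0 in 7 of 11 cells and Polr1a in 6 of 11, and 8 members were listed at 0 in 4 cells, namely Bysl, Ddx10, Grwd1, Mybbp1a, Nol6, Polr1b, Rrp1b and Rrp9. Of these 10, all but Grwd1 and Rrp9 were among the members lower in all 18 pools than in bulk RNA.

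Gnl3 was above 0 in all 11 cells, from 5.99 TPM in cell 11 to 185 TPM in cell 2 with a median of 82.5 TPM. Npm1 ranged from 64.5 to 1797 TPM (median 618), Ncl from 7.34 to 423 TPM (median 101) and Nop58 from 4.32 to 517 TPM (median 173). Without cells 6 and 9 the medians of Gnl3, Npm1, Ncl and Nop58 were 78.9, 509.7, 84.5 and 111 TPM, with the same ranges. Fbl was listed at 0 in cell 3 and reached 211 TPM in cell 1. The median SD over members was 2.07 in the 11 cells (2.23 without cells 6 and 9), 0.51 in the 10-cell pools and 0.03 in the 2 bulk libraries. In the 100-cell pools it was 0.68 over all 6, but 0.09 within pools 1 to 3 and 0.20 within pools 4 to 6. Over all 12325 genes the medians were 1.73, 0.68, 0.54 and 0.06 for the 11 cells, the 10-cell pools, the 100-cell pools and bulk RNA.

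Of the second list, 5 genes are X-linked, and they differed from the members in that all 5 (Dkc1, Gnl3l, Las1l, Tsr2 and Utp14a) were listed at 0 in single cells 1 to 4. Dkc1, the box H/ACA pseudouridine synthase dyskerin, was at between 0.448 and 109.8 TPM in the other 7 cells. Zeros were not confined to cells 1 to 4 in the rest. Tsr2 was above 0 in cells 6 and 9 alone, Las1l was also at 0 in cells 8 and 11, and Gnl3l and Utp14a were also at 0 in cell 11. The share of all genes listed at 0 in cells 1 to 4 was not taken. No member was listed at 0 in all of cells 1 to 4. These 5 genes were singled out after their values were seen.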

How the data were processed

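Bulk RNA of 4 processing conditions (12 libraries) and single cells, pools and bulk RNA (31 libraries) of PD798 were sequenced after SMART-Seq v4 amplification, which is not stranded. The authors aligned reads to mm10 with ERCC92 (STAR 2.5.2a, listed as 2.52 in the labels), counted them with featureCounts 1.4.6-p4, applied upper-quartile normalization with EDASeq and deposited TPM for 2 tables. The annotation used for counting is not given in the sources used here. TPM keeps no depth, so no counting interval could be given, and the number of libraries limits the precision. The tables were normalized separately, and tests were run only within a table. No value column was left unused (0).

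On log2(TPM + 1), genes reaching 1 TPM in a minimum of 3 of 12 (processing) or 2 of 20 (pools and bulk) libraries were kept, 12159 of 13845 and 12591 of 13817, with 49 of 49 members each. limma 3.58.1 (R 4.3.3, mean-variance trend, group as the only term) was fitted to all 12 or all 20 libraries, with an F test or two-sided contrasts, Benjamini-Hochberg adjustment over all genes kept and a threshold of 0.05. Single cells were described only. The fit was tested on simulated data. Features came from the GENCODE M21 annotation (96.3% of symbols matched) with Python 3.11.15. Of 100 other pathway genes 1, Utp4, was found under the older symbol Cirh1a.

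Members named with values are those called between conditions, the highest and lowest of each role, Gnl3, Ncl, Npm1, Fbl, Nop56 and Nop58, the extremes of each pair, the 3 of lowest adjusted p per direction for the inputs, and the extremes in SD and zeros over single cells. Others were named after their values were seen. The members and lists were chosen with earlier results of these data known. Alternatives were a pseudocount of 0.1, no filter, quantile normalization, a stricter filter (mean of 5 TPM), no trend, a replicate block, a fit of the 2 compared conditions alone, rescaled TPM, other detection limits and each library left out. Removal of a GC and length trend (natural splines with 4 degrees of freedom) and leaving out sets of pools, or single cells 6 and 9, were added after seeing the data.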

Additional observations from a re-analysis of the deposited data

How the results depend on the processing

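Depth is unknown, and with 3 libraries per condition and 2 of bulk RNA a single library can decide a count. Without 1 library at a time, the members called ranged from 0 to 1 among the 4 conditions. The range was the same for FACS-only and for Pre-enriched against Pre-FACS, and the count stayed at 0 for 5 other comparisons. Against bulk RNA the count reached up to 17 in the 10-cell pools and up to 28 in the 100-cell pools, and it fell without either bulk library. The shares of all genes called under these omissions were not taken. Limma without the trend gave 0 members among the 4 conditions and 0 for FACS-only against Pre-FACS, and so did (0) the fit of only the 2 conditions compared for the latter. For Pre-enriched against Pre-FACS, 1 member was called under quantile normalization, with the replicate block and with the GC and length trend removed, each time Gnl3. Over all genes 0.0329% were called higher and 0.0247% lower under quantile normalization, and 0.197% and 0.107% with the block. With the trend removed the shares were 0.0799% and 0.0799%, and in the main fit 0.0164% and 0.0329%. The libraries share only replicate numbers. In the processing experiment, of 18 pairs with the same number 2 had deviations correlated above 0.1 (median 0.07). Pairs with different numbers had a median of -0.03. The summed member TPM was highest in replicate 2 and lowest in replicate 3 in each of the 4 conditions. A replicate block raised the shares of all genes called in FACS-only against Pre-FACS. They went from 0.0987% higher and 0.0247% lower to 0.543% and 0.0905%, with 1 member called as before. The rise in Pre-enriched against Pre-FACS is given above. The input series was not part of the check of deviations. With the replicate number as a block, members called fell to 1 in the 10-cell pools against bulk RNA and to 0 in the 100-cell pools against bulk RNA. The shares of all genes called fell too, so the loss is not particular to the members. They went from 7.29% higher and 31.9% lower to 0.556% and 6.71% in the 10-cell pools. In the 100-cell pools they went from 7.13% and 24.9% to 0% and 0.0238%. Bulk RNA has only replicate numbers 1 and 2, so few pools share a number with a bulk library. A pseudocount of 0.1 gave 12 members in the 100-cell pools against bulk RNA. Over all genes 6.17% were then called higher and 13.03% lower, against 7.13% and 24.9% in the main fit. The drop in count is therefore not particular to the members. Quantile normalization gave 19 in the 10-cell pools, 11 of them higher, which turned the main direction. With the GC and length trend removed the counts were 16 and 7 against bulk RNA, both turned, and 1 for 100-cell against 10-cell pools. Without 100-cell pools 4 to 6 the counts against bulk RNA were 25 (10-cell, 8.64% of all genes higher and 37.6% lower) and 3 (100-cell). Without pools 1 to 3 they were 25 (8.49% and 36.2%) and 39, and 25 for 100-cell against 10-cell pools. Without those and 10-cell pools 5 and 12 they were 28, 39 and 21. The causes were not tested. The share of members at 1 TPM or more in a single cell lay between 71.4% and 83.7% under its 4 alternatives (79.6% as reported).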
